A study of Mus musculus with 16 samples.

Results

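Imprinted genes are transcribed mainly from the copy inherited from 1 parent, because DNA methylation laid down in the egg or the sperm tells the copies apart. They lie in clusters in which a single methylated control region governs several neighbours, often a growth-promoting gene of the paternal copy and a growth-restraining gene or a long non-coding RNA of the maternal one. In cultured pluripotent cells these marks are known to be lost or gained, so the level of an imprinted gene can differ between lines. The 34 genes described here were given as a list of symbols and matched by name to the gene probes of the array, on which Meg3 carries its older name Gtl2. All 34 had a probe and all 34 were among the 23203 genes tested, of 27670 genes in the series. They fall into 16 loci, 25 of them in loci with several listed genes, and lie on 9 chromosomes, 17 of them on chromosome 7. By textbook assignment 16 are expressed from the paternal allele, 17 from the maternal allele and 1, Gnas, from either depending on the transcript. Several (Ascl2, Gatm, Cd81 and Osbpl5 among them) are known to be imprinted mainly in the placenta. An array measures the RNA of both alleles together, so none of the values below says which allele was expressed.

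RNA of mouse pluripotent cell cultures was measured on 16 one-colour microarrays in 7 groups. The NOD (non-obese diabetic) strain gave 2 arrays of the EpiSC-like iPS line number 6 (passages 7 and 12), 4 arrays of the EpiSC-like ES line number 1 (replicates 1 to 4 at passages 7, 10, 5 and 9) and 3 arrays of NOD ES cells, titled 4K, 43 KP/CH and 85 KP (replicates 1 to 3). Groups labelled non-NOD were the EpiSC iPS cells, titled iPS_EpiSC 3M and 1K (replicates 1 and 2), EpiSC at passages 12 and 20, 129 ES cells in epiESM at passage 8 (1 array) and 129 ES cells in mESM at passage 8 (2 arrays of 1 source label). ES cells are derived from the inner cell mass of the blastocyst, EpiSC (epiblast stem cells) from the later epiblast, and iPS cells are reprogrammed from other cells. Each EpiSC-like group is 1 numbered line sampled at several passages, no label says that arrays of a group came from separate derivations, and the meaning of epiESM, mESM and the letters in the titles is not given in the sources used here. The p-values therefore measure the spread between these arrays, which may be technical, above all for the pair in mESM.

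Promoters of 5 imprinted genes described below are shown first. Mest had the largest difference of the imprinted genes in EpiSC over mESM, Peg3 starts beside Usp29, Dlk1 and Meg3 are a paternally and a maternally expressed gene of 1 domain, and Nnat was higher on every EpiSC and EpiSC-like array than on the NOD ES and mESM arrays. Each is the window, the richest in CpG where a gene has several, from 250 bases before to 50 bases after a transcription start in RefSeq on GRCm38.p6, printed 5′ to 3′ on the strand of the gene, with every CpG dinucleotide, the site of DNA methylation, in capitals.
Mest, chr6:30737800-30738099, plus strand: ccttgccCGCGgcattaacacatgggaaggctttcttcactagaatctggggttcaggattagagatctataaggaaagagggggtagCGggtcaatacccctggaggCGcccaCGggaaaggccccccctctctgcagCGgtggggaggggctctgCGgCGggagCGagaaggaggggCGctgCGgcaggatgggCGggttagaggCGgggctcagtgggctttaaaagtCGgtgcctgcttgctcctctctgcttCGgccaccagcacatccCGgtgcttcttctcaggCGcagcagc
Peg3, chr7:6730370-6730669, minus strand: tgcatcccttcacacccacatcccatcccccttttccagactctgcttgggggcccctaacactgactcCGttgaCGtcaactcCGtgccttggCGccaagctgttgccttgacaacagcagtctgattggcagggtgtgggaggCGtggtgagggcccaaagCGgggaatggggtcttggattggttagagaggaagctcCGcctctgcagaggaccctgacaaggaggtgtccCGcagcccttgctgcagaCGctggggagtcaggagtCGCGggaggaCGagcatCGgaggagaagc
Dlk1, chr12:109452573-109452872, plus strand: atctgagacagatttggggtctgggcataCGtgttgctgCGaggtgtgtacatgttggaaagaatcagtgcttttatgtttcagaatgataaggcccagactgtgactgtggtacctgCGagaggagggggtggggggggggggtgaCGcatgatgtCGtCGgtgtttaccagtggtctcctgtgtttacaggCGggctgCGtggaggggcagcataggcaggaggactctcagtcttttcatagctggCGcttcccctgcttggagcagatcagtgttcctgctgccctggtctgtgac
Meg3, chr12:109540746-109541045, plus strand: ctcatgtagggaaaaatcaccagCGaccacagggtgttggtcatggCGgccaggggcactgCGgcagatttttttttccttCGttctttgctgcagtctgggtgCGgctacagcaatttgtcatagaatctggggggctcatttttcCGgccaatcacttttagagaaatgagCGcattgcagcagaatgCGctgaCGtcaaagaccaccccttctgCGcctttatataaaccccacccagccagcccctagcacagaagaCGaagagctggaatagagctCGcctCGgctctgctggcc
Nnat, chr2:157559828-157560127, plus strand: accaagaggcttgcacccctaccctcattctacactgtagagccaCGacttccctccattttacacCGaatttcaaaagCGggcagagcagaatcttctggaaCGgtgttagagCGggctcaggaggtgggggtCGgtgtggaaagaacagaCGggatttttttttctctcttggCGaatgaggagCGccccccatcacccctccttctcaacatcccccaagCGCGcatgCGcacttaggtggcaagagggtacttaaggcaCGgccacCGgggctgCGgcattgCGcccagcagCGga
These windows hold 17 CpG (Mest), 13 (Peg3), 9 (Dlk1), 13 (Meg3) and 17 (Nnat), where the median over all 32851 promoter windows of the same table was 7 and that over the 45 windows of 28 imprinted genes was 16. TGCCGC, the short motif recognised by the zinc-finger protein Zfp57 when its CpG is methylated, was searched on both strands. It occurs 2 times in the Mest window, 1 time each in those of Meg3 and Nnat, and not within the windows of Peg3 and Dlk1. It was in 12 of the 45 windows (26.7%, in 11 of the 28 genes) and in 11.6% of all windows. The 12 include 2 largely overlapping windows of Mest. The motif holds a CpG, and the shares were not adjusted for the higher CpG count of the imprinted windows. The match of letters is a description of the sequence, and neither methylation nor binding was measured. Usp29 starts 96 bases from Peg3 on the opposite strand, and its window shares 263 bases with that of Peg3. H19, Sgce, Impact, Cdkn1c, Peg10 and Kcnq1 are named only.

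Values below are log2 of the processed signal relative to the 75th percentile of the same array, so 0 is the level of a probe at that percentile and 1 unit is a doubling. Probes are compared between arrays and never with other probes. A difference is given as the mean of the first group minus that of the second, with its standard error from 1 limma fit over all 16 arrays, and "rose" and "fell" are used of genes whose Benjamini-Hochberg adjusted p over all tested genes was under 0.05. A probe is called measured where the scanner software marked it well above background. The share of gene spots measured lay between 26.3% (NOD ES replicate 1) and 88.5% per array. Of the 34 imprinted genes, 34 and 33 were measured on the arrays of the EpiSC-like iPS line, 31 to 34 on those of the EpiSC-like ES line, 27 and 23 in EpiSC iPS, 32 and 33 in EpiSC, 17, 30 and 29 in NOD ES, 30 in epiESM and 32 and 31 in mESM.

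The labels were checked against marker genes, and 2 arrays stood apart from the other arrays of their group. Between EpiSC iPS replicate 2 and 2 of the NOD ES arrays (replicates 2 and 3) the standard deviation of the differences over genes was 0.371 and 0.373, whereas it was 0.979 between both EpiSC iPS arrays. The array nearest to NOD ES replicate 1 was EpiSC iPS replicate 1 (0.670), and the other NOD ES arrays lay at 1.09 and 1.11 from it. Whether these 2 arrays carry the labels of the RNA they were hybridised with was not tested, and every value of NOD ES and EpiSC iPS below rests on the labels as given. Counts of called imprinted genes in the comparisons with NOD ES or EpiSC iPS are given with and without both. Other counts, such as those by allele, of values without overlap and shared by pairs, use all arrays. Zfp42, a gene of naive ES cells, was at 4.57 and 5.76 on the arrays labelled EpiSC iPS, against -4.26 and -6.95 (neither measured) in EpiSC and 4.81 and 4.83 in mESM. The arrays labelled EpiSC iPS thus carried ES markers and not those of EpiSC: Fgf5, which marks the later epiblast, was at -1.71 and -3.06 (the second not measured) there, against 3.02 and 3.00 in EpiSC. Pou5f1 (Oct4), which defines pluripotent cells, was at -4.34 (not measured) and -3.32 in the EpiSC-like iPS line and between -1.43 and -0.53 in the EpiSC-like ES line, against 0.96 and 0.35 in EpiSC and 2.26 to 4.44 in NOD ES. Nanog was at -2.49 and -2.28 in the EpiSC-like iPS line and -2.73 to -2.06 in the ES line. It was at -0.73 and -0.40 in EpiSC and at 0.63 to 3.90 in NOD ES. Both lines labelled EpiSC-like were therefore low in Pou5f1 and Nanog, and the iPS line was also low in Fgf5 (-2.19 and -2.12). Pou5f1 (-3.79) and Nanog (-4.43) also fell in EpiSC over mESM. In the EpiSC-like ES line over NOD ES, 9 of 15 markers of primed cells rose and 3 fell, while 6 of 7 core pluripotency genes and 15 of 17 naive markers fell. In the iPS line over NOD ES, 5 primed markers rose and 5 fell, and 7 core genes and 15 naive markers fell. In EpiSC over mESM 11 primed markers rose, and 4 core genes and 14 naive markers fell. In EpiSC iPS over EpiSC 12 primed markers fell, and 3 core genes and 14 naive markers rose.

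Markers of embryonic fibroblasts, on which such cells are grown and which express several imprinted genes, moved with the same groups. The mean log2 value of 24 fibroblast markers was 3.24 and 3.17 in the EpiSC-like iPS line, 3.79 to 4.07 in the EpiSC-like ES line, 3.40 and 0.53 in EpiSC iPS, 2.84 and 2.80 in EpiSC, 1.99, 0.63 and 0.52 in NOD ES, 2.45 in epiESM and -1.36 and -1.39 in mESM. On the arrays of lowest detection, 18 (EpiSC iPS replicate 2) and 16 (NOD ES replicate 1) of the 24 were measured, and 22 and 20 in mESM. None of Lum, Dcn, Col1a1 and Col1a2 was absent from mESM: Col1a1 was at 1.02 and 1.00 and Lum at -4.61 and -4.53 there, all measured. The list rose in 19 of 24 genes in the EpiSC-like ES line over NOD ES, in 13 in the iPS line over NOD ES and in 20 in EpiSC over mESM, and fell in none of these comparisons. Per the labels' protocols, ES cells were depleted of feeder cells on gelatin, and EpiSC or EpiSC-like cells were separated mechanically. Handling thus differed with cell type in these comparisons. The part of fibroblasts in the results on imprinted genes cannot be told apart from that of cell type and was not tested. In bulk RNA, fewer cells of a type and less RNA per cell cannot be told apart. Extraembryonic endoderm, which expresses H19 and Igf2 strongly, was followed by 18 markers, whose mean log2 value was 0.53 on both arrays of the EpiSC-like iPS line and -0.26 to 0.13 in the ES line, against -1.14 to -2.57 in NOD ES, and -0.91 and -0.95 in EpiSC, against -2.02 and -1.96 in mESM. Their part was not tested either.

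**Figure D1:**
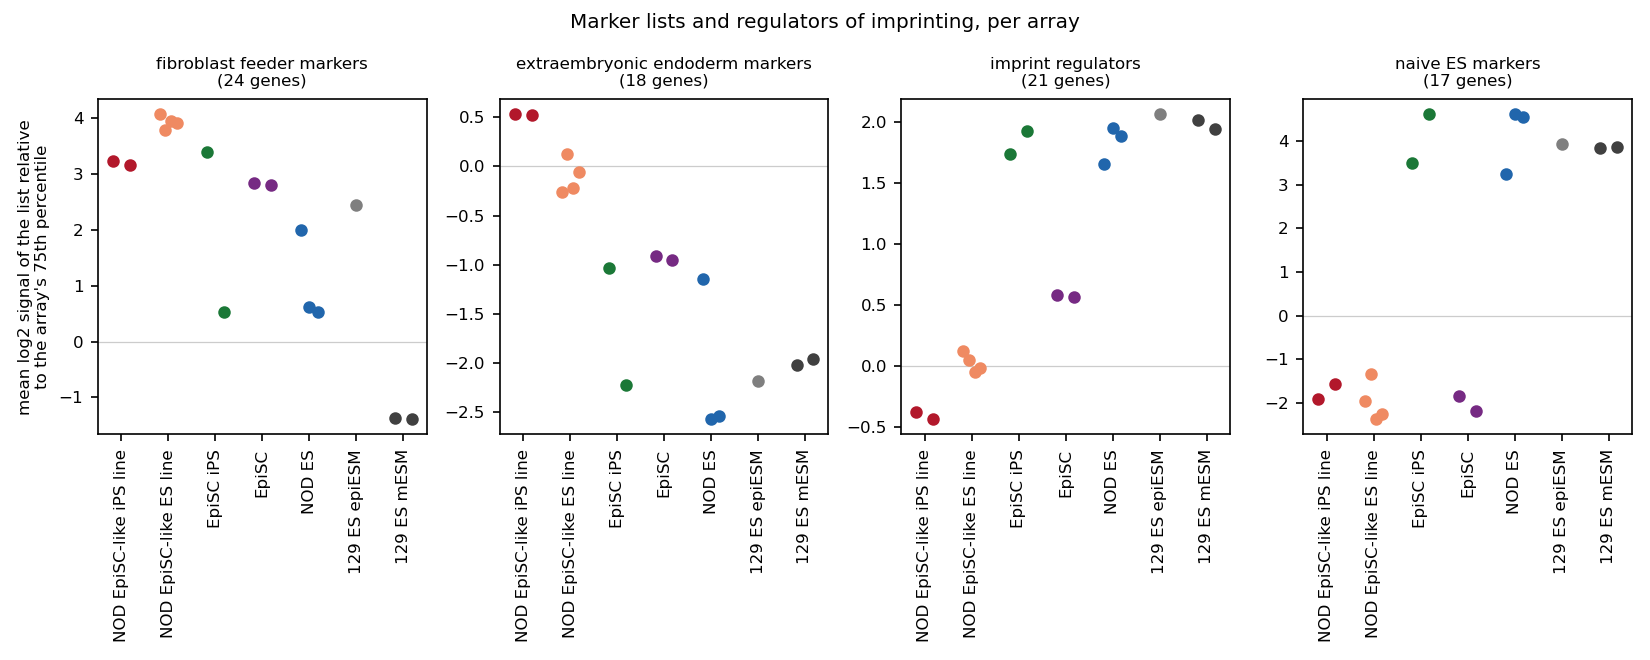
Mean log2 signal per array of the fibroblast markers, extraembryonic endoderm markers, genes that set or keep imprints, and naive ES markers, on an axis relative to the 75th percentile of the array. Each point is 1 array in its group. The fibroblast markers lie lowest on both mESM arrays (-1.36 and -1.39), and the naive markers lie at ES levels on both arrays labelled EpiSC iPS.

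Across the 8 arrays of EpiSC and both EpiSC-like lines and the 6 arrays of ES cells, 13 imprinted genes had values that did not overlap and were higher in the EpiSC and EpiSC-like arrays, 1 was lower and 20 overlapped. Over all genes tested, 7.28% were higher and 8.02% lower without overlap. The imprinted genes were chosen with earlier results of these data known. Such shares, here and below, therefore describe this list and not imprinted genes in general. NOD ES replicate 1, which stood apart, is among the 6 ES arrays. The 13 genes were H19, Igf2, Cdkn1c, Osbpl5, Dlk1, Peg3, Sgce, Asb4, Ndn, Nnat, Igf2r, Gnas and Nap1l5, of which 7 are paternally and 5 maternally expressed, and the gene that was lower was Phlda2, which is maternally expressed. The separation of Cdkn1c was narrow, since the lowest EpiSC-like array and the highest ES array were both at 2.84.

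**Figure D2:**
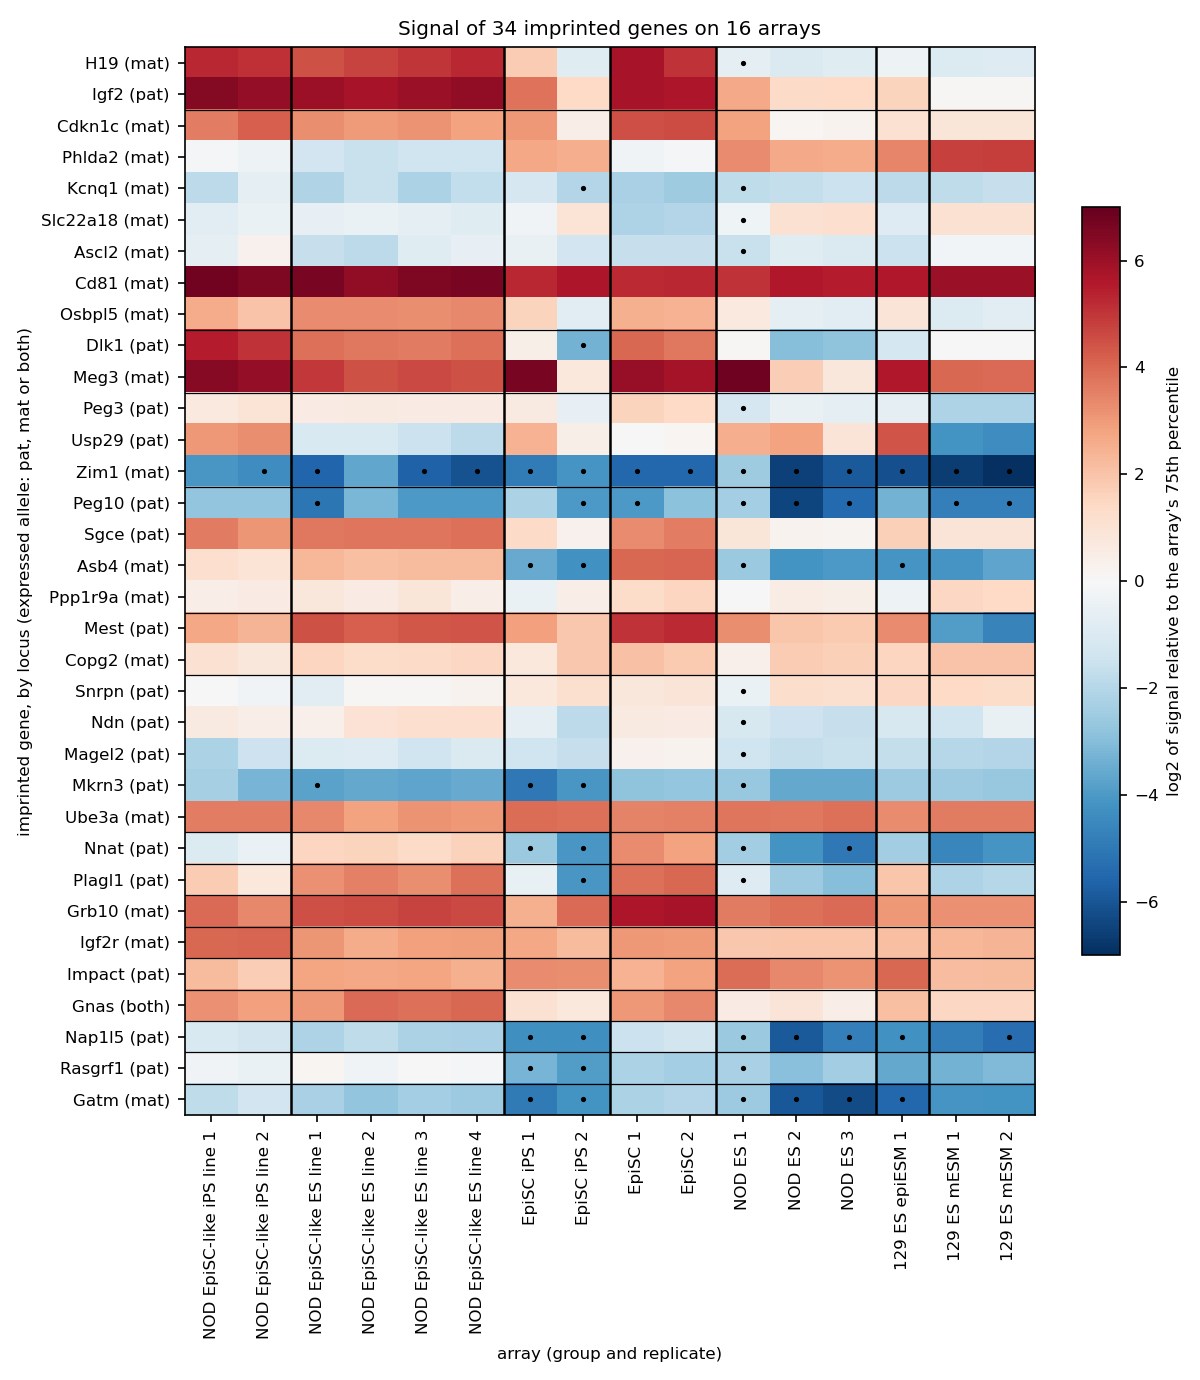
Log2 signal of the 34 imprinted genes (rows, by locus, with the expressed allele) on the 16 arrays (columns, by group), relative to the 75th percentile of each array. A dot marks a probe not well above background. H19 and Igf2 are high on the 8 arrays of the EpiSC-like lines and EpiSC, and Phlda2 is low there.

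The 34 imprinted genes were chosen with earlier results of these data known. In the EpiSC-like ES line over NOD ES, 18 of them rose (17.7% of all genes did) and 5 fell (23.9% of all). The median difference of the imprinted genes was 1.25, that of all genes -0.41. In the EpiSC-like iPS line over NOD ES, 17 rose (15.7% of all) and 3 fell (17.4% of all), with medians of 1.79 and -0.04. With normexp background correction the median of the imprinted genes there was 0.80, below the 1.01 of all genes, and 11 of the 20 calls were kept. Both comparisons share the 3 NOD ES arrays. In EpiSC over 129 ES cells in mESM, which share no array with these, 18 rose (12.6% of all) and 3 fell (11.5% of all), with medians of 1.86 and -0.28. By allele, 10 paternally expressed genes rose and 2 fell in the EpiSC-like ES line, 9 and 1 in the iPS line and 12 and 0 in EpiSC, of 16 each time. Of the 17 maternally expressed genes, 7 rose and 3 fell in the ES line, 7 and 2 in the iPS line and 5 and 3 in EpiSC. Without both arrays that stood apart, the counts of genes that rose and fell were 21 and 6 in the ES line, 22 and 5 in the iPS line and 21 and 4 in EpiSC. The pooled spread was smaller in that fit, so these counts cannot be set beside the percentages above. Within slide 4, the only slide that held both the EpiSC-like ES line and NOD ES, all 23 called genes kept their direction. The arrays of slide 4 are part of the fit that called these genes, so this is no separate check.

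The pair of EpiSC-like ES line and NOD ES and the pair of EpiSC and mESM have no array in common. In both pairs 15 imprinted genes rose, which is 83.3% of the 18 in either pair, and 2 fell, Phlda2 and Slc22a18. Among all genes, 2088 rose in both pairs, 50.8% of the 4114 of the NOD pair and 71.4% of the 2923 of the EpiSC pair. Of all 23203 genes, 1838 fell in both pairs and 202 were called in opposite directions. Among the 34 imprinted genes, 2 were called in opposite directions. On the probe used, Usp29 fell in the EpiSC-like ES line and rose in EpiSC, while its second probe rose in the ES line (1.40). Cd81 rose in the EpiSC-like ES line and fell in EpiSC, a fall that held in 7 of 15 alternative analyses.

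**Figure D3:**
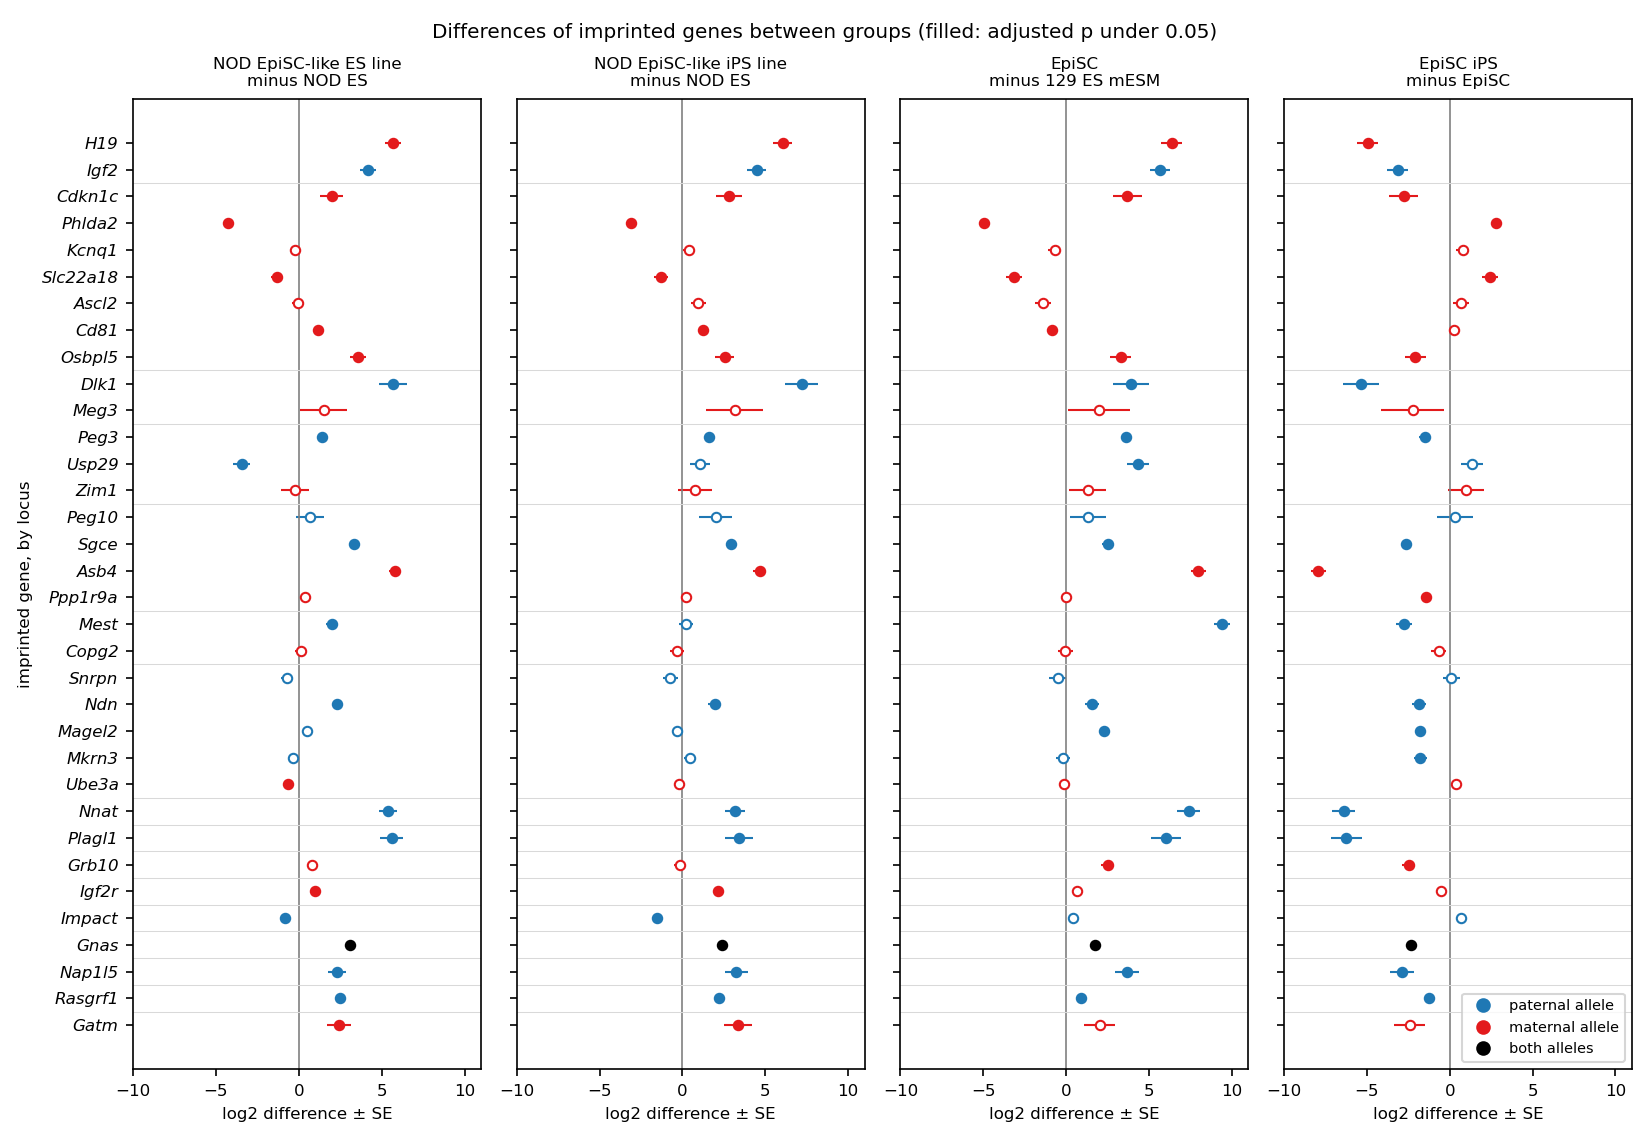
Log2 difference (horizontal axis, with SE) of each imprinted gene in 4 comparisons, ordered by locus and coloured by expressed allele, with filled points for an adjusted p under 0.05. H19, Igf2, Dlk1, Asb4, Nnat and Plagl1 lie to the right of 0 in the first 3 panels and to the left in EpiSC iPS minus EpiSC, and Phlda2 lies on the other side each time.

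H19 and Igf2 share enhancers and 1 control region on chromosome 7 (H19 at chr7:142575530-142578146 and Igf2 at chr7:142650768-142666816, GRCm38.p6). H19 is a maternally expressed non-coding RNA, and Igf2 is the paternally expressed insulin-like growth factor of the fetus. H19 was at 5.30 and 5.13 in the EpiSC-like iPS line and at 4.48, 4.74, 4.99 and 5.25 in the EpiSC-like ES line, against -0.61 (not measured), -1.03 and -0.86 in NOD ES. In EpiSC it was at 5.79 and 5.07, against -0.97 and -0.90 in mESM. H19 was thus high on all 8 EpiSC and EpiSC-like arrays and low on all ES arrays, with no overlap, and rose by 5.70 ± 0.49 in the ES line (51.9-fold, adjusted p = 5.5e-06), by 6.05 ± 0.58 in the iPS line and by 6.37 ± 0.64 in EpiSC. Igf2 was at 6.43 and 6.17 in the EpiSC-like iPS line and at 6.01, 5.76, 6.02 and 6.23 in the ES line, against 2.68, 1.35 and 1.42 in NOD ES. EpiSC had 5.78 and 5.68, against 0.07 and 0.06 in mESM. It rose in the same 3 comparisons as H19, by 4.19 ± 0.48 in the ES line (18.3-fold), 4.48 ± 0.57 in the iPS line and 5.66 ± 0.63 in EpiSC. The RNA assigned to the maternal and the RNA assigned to the paternal copy of this locus were therefore high on the same arrays.

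The Kcnq1 domain, on the same chromosome, holds maternally expressed genes under a second control region, and 7 of them were measured. Phlda2, which restrains growth of the placenta, was at -0.11 and -0.36 in the EpiSC-like iPS line and between -1.54 and -1.32 in the ES line, against 3.33, 2.64 and 2.58 in NOD ES. In EpiSC it was at -0.24 and -0.08, against 4.80 and 4.82 in mESM. It fell by 4.27 ± 0.20 in the ES line (19.3-fold, adjusted p = 1.2e-07), by 3.08 ± 0.24 in the iPS line and by 4.97 ± 0.26 in EpiSC, with no overlap. Slc22a18, a membrane transporter whose gene lies beside it, fell by 1.30 ± 0.37 in the ES line, 1.30 ± 0.44 in the iPS line and 3.17 ± 0.48 in EpiSC. Its second probe fell in the ES line and gave 0.59 in the iPS line and -0.79 in EpiSC, neither called, and the call in the iPS line held in 5 of 16 alternatives. Cdkn1c, the cell-cycle inhibitor p57, went the other way and rose by 1.97 ± 0.67 in the ES line, 2.80 ± 0.80 in the iPS line and 3.68 ± 0.88 in EpiSC. Its values in NOD ES were 2.84, 0.16 and 0.24, and the first of these is the array that stood apart. Osbpl5, a lipid-transfer protein, rose by 3.56 ± 0.49 in the ES line, 2.55 ± 0.58 in the iPS line and 3.30 ± 0.64 in EpiSC. Cd81, a tetraspanin of the cell surface, rose by 1.14 ± 0.20 in the ES line and 1.26 ± 0.24 in the iPS line and fell by 0.83 ± 0.26 in EpiSC. With normexp background correction its value in the iPS line was -0.86 and was not called. The fall of Cd81 in EpiSC held in 7 of 15 alternatives. Neighbouring maternally expressed genes of this domain thus moved in opposite directions in the same comparisons of bulk RNA. Kcnq1, a potassium channel, and Ascl2, a transcription factor of the trophoblast, passed the test in none of the 3 comparisons, with differences between -1.41 and 0.96. Of 14 tested trophoblast markers, 1 rose and 6 fell in the ES line, 0 and 4 in the iPS line and 2 and 3 in EpiSC, and their part in the lower Phlda2 was not tested.

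**Figure D4:**
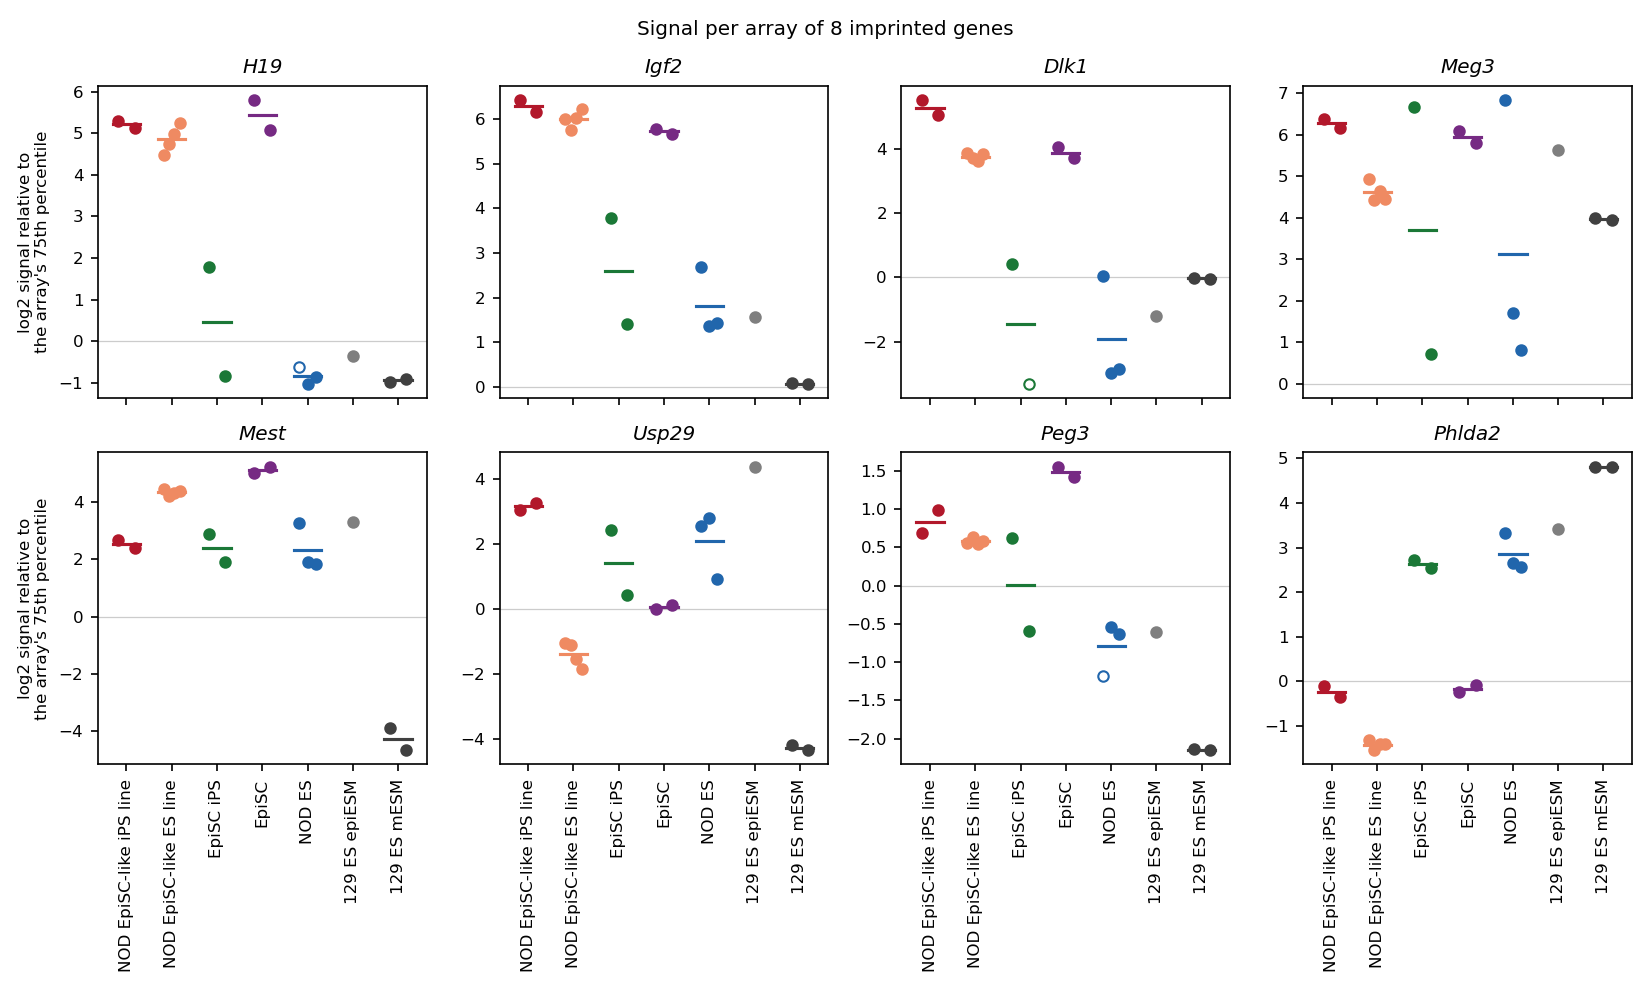
Log2 signal per array of H19, Igf2, Dlk1, Meg3, Mest, Usp29, Peg3 and Phlda2, relative to the 75th percentile of the array, by group. Points are arrays, open points were not well above background, and the bar is the group mean. Mest, and Usp29 on the probe used, lie far lower on both mESM arrays than on the other 14, and Meg3 is divided within EpiSC iPS and NOD ES.

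Dlk1 and Meg3 lie in 1 domain of chromosome 12, as a paternally expressed membrane ligand related to Notch ligands and a maternally expressed non-coding RNA. Dlk1 was at 5.51 and 5.05 in the EpiSC-like iPS line and at 3.85, 3.71, 3.62 and 3.83 in the ES line, against 0.06, -2.96 and -2.83 in NOD ES. It was at 4.04 and 3.72 in EpiSC, against -0.03 on both mESM arrays. Dlk1 rose by 7.19 ± 0.99 in the iPS line, by 5.67 ± 0.83 in the ES line (50.8-fold) and by 3.91 ± 1.09 in EpiSC, and its values did not overlap between EpiSC or EpiSC-like and ES arrays. Meg3, whose silencing is known in some mouse iPS lines, was at 6.38 and 6.16 in the EpiSC-like iPS line and at 4.93, 4.44, 4.64 and 4.44 in the ES line, against 6.83, 1.71 and 0.81 in NOD ES. EpiSC had 6.09 and 5.80, epiESM 5.63 and mESM 4.00 and 3.96. EpiSC iPS was divided too, at 6.67 and 0.73. The 3 low values were those of NOD ES replicates 2 and 3 and EpiSC iPS replicate 2. These 3 arrays were the lowest on all 5 probes of Meg3, but mESM came near them on some. The closest such probe was at -2.99 and -3.14 in mESM, against -3.47 in NOD ES replicate 3. Meg3 passed the test in none of the comparisons with all 16 arrays (1.5 ± 1.43 in the ES line over NOD ES, adjusted p = 0.42). Without both arrays that stood apart it was higher by 3.35 ± 0.25 in the ES line and 5.01 ± 0.29 in the iPS line over NOD ES, past the threshold, so these arrays decide its call.

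The Peg3 domain of chromosome 7 holds Peg3, a paternally expressed zinc-finger gene, Usp29, a deubiquitinating enzyme of the ubiquitin-specific protease family read from the opposite strand, and Zim1, a maternally expressed zinc-finger gene. Peg3 was at 0.68 and 0.98 in the EpiSC-like iPS line and between 0.55 and 0.63 in the ES line, against -1.19 (not measured), -0.54 and -0.63 in NOD ES. EpiSC had 1.56 and 1.42, against -2.13 and -2.15 in mESM. Peg3 rose by 1.62 ± 0.32 in the iPS line, 1.37 ± 0.27 in the ES line and 3.63 ± 0.35 in EpiSC, and did not overlap with the ES arrays. Usp29 did not follow it. It was at 3.05 and 3.27 in the EpiSC-like iPS line and at -1.05, -1.08, -1.53 and -1.82 in the ES line, against 2.55, 2.79 and 0.92 in NOD ES, and at 0.00 and 0.14 in EpiSC, against -4.17 and -4.33 in mESM. It fell by 3.46 ± 0.50 in the ES line, differed by 1.07 ± 0.60 in the iPS line (adjusted p = 0.21) and rose by 4.32 ± 0.66 in EpiSC. The probe of Usp29 used here lies at chr7:6289908-6289967 on mm7, the build of the array files. A second probe, at chr7:6526367-6526426 on mm7, gave 1.40 in the ES line over NOD ES, past the threshold in the opposite direction, and 3.36 in the iPS line and 1.98 in EpiSC. The direction of Usp29 in the EpiSC-like ES line thus depends on the probe. Zim1 was measured on 2 of the 16 arrays and passed the test in no comparison.

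Of the Peg10-Sgce locus of chromosome 6, Sgce (paternally expressed, a sarcoglycan of the cell membrane) was at 3.62 and 3.08 in the EpiSC-like iPS line and between 3.72 and 3.85 in the ES line, against 0.87, 0.25 and 0.17 in NOD ES. EpiSC had 3.29 and 3.56, against 0.93 and 0.91 in mESM. It rose by 2.92 ± 0.32 in the iPS line, 3.34 ± 0.27 in the ES line and 2.51 ± 0.35 in EpiSC, without overlap. Peg10, a paternally expressed gene derived from a retrotransposon that lies 101 bases from Sgce, was not called in any of these comparisons and lay between -6.45 and -2.23 on all arrays. Asb4, a maternally expressed adaptor of ubiquitin ligases, was at 1.2 and 0.93 in the EpiSC-like iPS line and between 2.09 and 2.35 in the ES line, against -2.57 (not measured), -4.18 and -4.0 in NOD ES. It was at 4.01 and 4.09 in EpiSC, against -4.11 and -3.71 in mESM, and rose by 4.65 ± 0.41 in the iPS line, 5.79 ± 0.34 in the ES line and 7.96 ± 0.45 in EpiSC. Ppp1r9a, a maternally expressed scaffold protein of the actin skeleton, passed the test in none of the 3. Sgce and Asb4 thus rose in all 3 comparisons, and Ppp1r9a was called in none. Whether Peg10 shared the rise of Sgce cannot be decided, because its probe was measured on no NOD ES and no mESM array. The differences of Peg10 were 0.67 in the ES line, 1.99 in the iPS line and 1.34 in EpiSC, of the same sign as those of Sgce.

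Mest, a paternally expressed enzyme of the hydrolase fold on chromosome 6, was at 2.68 and 2.39 in the EpiSC-like iPS line and at 4.48, 4.20, 4.34 and 4.38 in the ES line, against 3.27, 1.92 and 1.84 in NOD ES. In EpiSC it was at 5.04 and 5.25, against -3.90 and -4.67 in mESM. The mESM arrays were the only ones on which Mest lay below 0, and its difference of 9.43 ± 0.47 in EpiSC over mESM was the largest of any imprinted gene in these 3 comparisons. Mest rose by 2.0 ± 0.36 in the EpiSC-like ES line over NOD ES and differed by 0.19 ± 0.43 in the iPS line (adjusted p = 0.78). Copg2, a coat protein of vesicles whose gene overlaps the end of Mest by 913 bases, passed the test in none of them, with differences from -0.35 to 0.12. The fibroblast markers were also lowest on the mESM arrays, and their part in the difference of Mest was not tested.

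In the Snrpn-Ube3a region of chromosome 7, known in people for the Prader-Willi and Angelman syndromes, 5 genes were tested. Ndn, a paternally expressed protein of the MAGE family, rose by 2.33 ± 0.33 in the EpiSC-like ES line, 1.95 ± 0.39 in the iPS line and 1.55 ± 0.43 in EpiSC, without overlap. Its relative Magel2 rose in EpiSC alone of the 3 comparisons, by 2.30 ± 0.27. Ube3a, a ubiquitin ligase imprinted mainly in neurons, fell by 0.68 ± 0.16 in the ES line. Snrpn, a protein of the splicing machinery, and Mkrn3, a further paternally expressed RING-finger protein, passed the test in none of the 3.

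Of the imprinted genes that stand alone in the list, Nnat, a paternally expressed membrane proteolipid of neurons, was at -0.95 and -0.44 in the EpiSC-like iPS line and between 1.33 and 1.64 in the ES line, against -2.45 (not measured), -4.17 and -5.0 (not measured) in NOD ES. In EpiSC it was at 3.28 and 2.83, against -4.55 and -4.12 in mESM, and it rose by 3.18 ± 0.62 in the iPS line, 5.38 ± 0.52 in the ES line and 7.39 ± 0.68 in EpiSC. Of 14 markers of early neural cells, 7 rose in the iPS line, 10 in the ES line and 10 in EpiSC, none fell, and their part was not tested. Plagl1 (Zac1), a paternally expressed transcription factor, was at 1.76 and 0.76 in the EpiSC-like iPS line and between 3.19 and 3.85 in the ES line, against -0.93 (not measured), -2.53 and -2.96 in NOD ES. It rose by 3.40 ± 0.85 in the iPS line, 5.60 ± 0.71 in the ES line and 6.04 ± 0.93 in EpiSC. Among the EpiSC-like arrays, every array of the ES line lay above both of the iPS line for both genes. A second probe of Plagl1 gave 0.33 in the ES line over NOD ES and was not called.

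Gnas, the stimulatory G-protein alpha subunit, rose by 3.09 ± 0.25 in the EpiSC-like ES line, 2.38 ± 0.30 in the iPS line and 1.75 ± 0.33 in EpiSC, without overlap. Of its 7 tested probes, 3 rose and 1 fell in the ES line, and 1 rose and 3 fell in EpiSC iPS over EpiSC. Igf2r, the maternally expressed receptor that clears Igf2, was at 4.02 and 4.08 in the EpiSC-like iPS line and between 2.59 and 3.09 in the ES line, against 1.86 to 1.95 in NOD ES, and rose by 2.14 ± 0.21 in the iPS line and 0.95 ± 0.17 in the ES line. With normexp background correction the value in the iPS line was -0.06 and was not called. On the scale used here, the ligand Igf2 and its clearing receptor were thus both higher in the EpiSC-like lines. Impact, a paternally expressed regulator of translation, fell by 1.52 ± 0.26 in the iPS line and 0.81 ± 0.22 in the ES line. Grb10, a maternally expressed adaptor that inhibits insulin signalling, rose in EpiSC over mESM, by 2.52 ± 0.39, and was called in neither EpiSC-like line over NOD ES on the probe used. Its 2 other probes rose in the iPS line over NOD ES, by 2.42 and 1.46, where the probe used gave -0.18. Rasgrf1, a paternally expressed activator of Ras, rose by 2.18 ± 0.26 in the iPS line, 2.51 ± 0.22 in the ES line and 0.89 ± 0.28 in EpiSC. Nap1l5, a histone chaperone relative, and Gatm, an enzyme of creatine synthesis, were measured on no NOD ES array. Nap1l5 was at least 9.26-fold higher in the iPS line and 4.8-fold higher in the ES line, and Gatm at least 10.2-fold and 5.32-fold higher, against the lowest measured signal of each NOD ES array or the probe's own signal there.

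The iPS and ES EpiSC-like lines of the NOD strain were compared with each other. In the iPS line over the ES line 3 imprinted genes rose (13.8% of all genes did) and 3 fell (11.7% of all), with a median of 0.19 beside 0.27 for all genes. Usp29 rose by 4.53 ± 0.57, Phlda2 by 1.18 ± 0.22 and Igf2r by 1.18 ± 0.20. Nnat fell by 2.20 ± 0.59, Mest by 1.81 ± 0.41 and Magel2 by 0.77 ± 0.23. With quantile normalization 3 rose and 6 fell. Without both arrays that stood apart, neither of which is in these groups, the pooled spread was smaller, and 10 imprinted genes rose and 9 fell, where 11696 of all 23203 genes were called. H19 and Igf2 differed by 0.35 ± 0.55 and 0.29 ± 0.54 between the lines, and neither was called. On slide 1, which held 1 array of each line, all 6 called genes had the same direction, but both arrays are part of the fit that called them.

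The arrays labelled EpiSC iPS were set against EpiSC, whose 2 arrays also enter EpiSC over mESM. Of the imprinted genes, 2 rose (11.6% of all genes did) and 19 fell (9.18% of all), with a median of -1.77 beside 0.40 for all genes. Of the paternally expressed genes 12 of 16 fell and none rose, and of the maternally expressed ones 6 of 17 fell and 2 rose. H19 was at 1.79 and -0.85 in EpiSC iPS, against 5.79 and 5.07 in EpiSC, and fell by 4.96 ± 0.64. Igf2 was at 3.77 and 1.41 in EpiSC iPS, against 5.78 and 5.68 in EpiSC, and fell by 3.13 ± 0.63. Dlk1 was at 0.40 and -3.31 (not measured) in EpiSC iPS, against 4.04 and 3.72 in EpiSC, and fell by 5.33 ± 1.09. All 3 were lower on both arrays, and lower on replicate 2, the one that stood apart. Asb4 and Nnat were measured on neither EpiSC iPS array and were at least 241-fold and 84.7-fold lower. Plagl1 fell by 6.24 ± 0.93, and the genes that rose were Phlda2, by 2.79 ± 0.26, and Slc22a18, by 2.45 ± 0.48. Mest fell by 2.74 ± 0.47, to 2.89 and 1.91 in EpiSC iPS, against 5.04 and 5.25 in EpiSC, and so stayed above its level in mESM. Usp29 differed by 1.35 ± 0.66 and was not called, while its second probe fell by 2.72. Without both arrays that stood apart, 4 rose and 21 fell. In that fit the pooled spread was smaller and only replicate 1 of EpiSC iPS remained, so its counts cannot be set beside the percentages above. H19 was lower by 3.64 ± 0.35 in it and Igf2 by 1.95 ± 0.20. There the fibroblast markers rose in 8 of 24 genes and fell in 3, with a median of 0.50. Their mean was 3.40 on EpiSC iPS replicate 1 and 0.53 on replicate 2, against 2.84 and 2.80 in EpiSC, and their part was not tested. With only the 4 arrays of these groups in the fit, 1 rose and 3 fell.

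NOD ES and 129 ES cells in mESM differed in 6 imprinted genes. Relative to mESM, 4 rose in NOD ES (6.06% of all genes did) and 2 fell (2.93% of all), with a median of 0.03 beside 0.24 for all genes. Mest rose by 6.63 ± 0.43 (2.35 ± 0.80 in NOD ES, SD, n = 3, and -4.28 ± 0.54 in mESM, SD, n = 2) and Usp29 by 6.33 ± 0.60 (2.09 ± 1.02 in NOD ES, SD, n = 3, and -4.25 ± 0.12 in mESM, SD, n = 2). Peg3 rose by 1.35 ± 0.32 and Impact by 1.29 ± 0.26. Each of these 4 is paternally expressed. Phlda2 fell by 1.96 ± 0.24 and Ppp1r9a by 1.11 ± 0.27, both maternally expressed. The other tested probes of Ppp1r9a gave 1.99, 0.71, -0.23 and 0.60, and were measured on 3, 2, 12 and 5 of the 16 arrays. The call of Peg3 held in 6 of 16 alternatives and that of Ppp1r9a in 8 of 16. The second probe of Usp29 gave -0.11 and was not called. With quantile normalization 4 rose and 4 fell, and 3 rose and 3 fell with the values the authors deposited. With only these groups in the fit, limma called none (11 had an unadjusted p under 0.05), and without either mESM array 2 rose and 1 fell. Without both arrays that stood apart, 6 rose and 7 fell, in a fit with a smaller pooled spread to which the percentages above do not belong. With the slide as a random block Peg3 (adjusted p = 0.063) and Ppp1r9a (adjusted p = 0.056) were no longer called. Fibroblast markers rose in 10 of 24 genes in NOD ES over mESM, and their part was not tested. In the single epiESM array over mESM 3 imprinted genes rose (2.52% of all genes did) and 2 fell (1.5% of all), with the spread taken from the other groups. On the probe used, Usp29 was at 4.38 in epiESM, against -4.17 and -4.33 in mESM, while its second probe was at -3.24, against -3.21 and -2.69. Mest was at 3.29 in epiESM, against -3.90 and -4.67 in mESM, and Impact at 4.05, against 2.18 and 2.20. Usp29 (on 1 of its 2 probes), Mest and Impact rose, by 8.63 ± 0.81, 7.58 ± 0.58 and 1.85 ± 0.35, and Phlda2 and Ppp1r9a fell, by 1.40 ± 0.32 and 1.77 ± 0.36. Fibroblast markers rose in 12 of 24 genes there. All comparisons with mESM rest on the same 2 arrays, so the low Mest of these arrays, and the low Usp29 on the probe used, enter each of them.

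The NOD pair and the EpiSC pair were compared by an interaction. It is the difference of both NOD EpiSC-like lines, weighted equally, over NOD ES minus that of EpiSC over mESM. Strain, line and culture in mESM cannot be told apart in this interaction, which rests on 2 mESM arrays of 1 source label. Of the imprinted genes, 3 were higher in it (4.93% of all genes were) and 8 lower (7.55% of all). Mest was at -8.33 ± 0.58 and Usp29 at -5.51 ± 0.81 (0.40 and not called for its second probe), followed by Nnat (-3.11), Asb4 (-2.74), Grb10 and Magel2 (-2.22 each; -0.07 and -0.38, not called, for the other probes of Grb10), Peg3 (-2.14) and Impact (-1.60). Cd81 (2.03), Rasgrf1 (1.46) and Phlda2 (1.29) were higher. A negative value for Asb4, Nnat and Peg3 means a smaller rise in the NOD pair, since each rose in both. With quantile normalization 4 were higher and 6 lower. H19 (-0.49 ± 0.78) and Igf2 (-1.33 ± 0.77) were not called. The epiESM array, also of 129 ES cells, was itself above mESM by 7.58 in Mest and by 8.63 in Usp29 on the probe used.

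Genes that set, keep or remove imprints were followed as a list of 22, of which 21 were tested. In the EpiSC-like ES line over NOD ES 1 rose and 13 fell, in the iPS line 0 rose and 14 fell, in EpiSC over mESM 1 rose and 8 fell, and in EpiSC iPS over EpiSC 6 rose and 2 fell. Dnmt3l, the cofactor of de novo DNA methylation, fell by 8.11 ± 0.30 in the ES line, fell by 7.72 ± 0.36 in the iPS line and fell by 7.73 ± 0.39 in EpiSC, and rose by 8.93 ± 0.39 in EpiSC iPS. Dppa3 (Stella), which protects maternal imprints in the zygote, was at least 202-fold lower in the ES line, 191-fold in the iPS line and 70.3-fold in EpiSC, and at least 279-fold higher in EpiSC iPS. Trim28, the co-repressor that acts with Zfp57, fell by 2.91 ± 0.26 in the ES line, 2.93 in the iPS line and 1.23 in EpiSC, and rose by 1.92 in EpiSC iPS. Zfp57 fell by 2.83 ± 0.78, 2.87 and 3.93 in the same order and was not called in EpiSC iPS. These 4 regulators thus fell in the same 3 comparisons in which most naive ES markers fell. Uhrf1, which brings the maintenance enzyme to replicating DNA, fell by 2.83 in the ES line and 4.01 in the iPS line over NOD ES, and Dnmt1, that enzyme, by 1.35 and 1.84, while neither was called in EpiSC over mESM. Dnmt3b, a de novo enzyme, fell by 4.32 ± 0.33 in the iPS line and 1.05 in the ES line, and Dnmt3a was called in none of these comparisons. Tet1, which oxidises methylated cytosine, fell by 2.85 in the ES line, 2.01 in the iPS line and 3.46 in EpiSC.

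A further list of 48 imprinted genes, 41 of them tested, is given for comparison. In it 11 rose and 9 fell in the EpiSC-like ES line over NOD ES, 11 and 4 in the iPS line, 9 and 3 in EpiSC over mESM and 1 and 8 in EpiSC iPS over EpiSC. Over all genes, 17.7% rose and 23.9% fell in the first of these, 15.7% and 17.4% in the second, 12.6% and 11.5% in the third and 11.6% and 9.18% in the fourth, so the share of falls in the ES line was near that of all genes. The medians were -0.22, 0.28, 0.22 and -0.05, of which the first turned to 0.25 with quantile normalization. Dcn, which is also a fibroblast marker, rose by 6.08 ± 0.65 in the ES line, 5.26 ± 0.78 in the iPS line and 7.58 ± 0.85 in EpiSC. Dio3, an enzyme of the Dlk1-Meg3 domain that inactivates thyroid hormone, fell by 3.34 ± 0.89 in the ES line and 4.4 ± 1.06 in the iPS line, where Dlk1 rose. Of 16 genes of insulin-like growth factor signalling, 15 were tested, and 9 rose and 2 fell in the ES line, 10 and 0 in the iPS line, 9 and 0 in EpiSC, and 1 and 6 in EpiSC iPS. Igfbp5, a secreted binding protein of these factors, rose by 7.86 ± 0.88 in the ES line and 6.18 ± 1.05 in the iPS line and was at least 497-fold higher in EpiSC. Irs1, the adaptor of the insulin and Igf1 receptors, rose by 3.98 ± 0.55 in the ES line and by 4.46 ± 0.71 in EpiSC. Several of these proteins are made by fibroblasts, whose markers moved in the same comparisons, and their part was not tested.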

How the data were processed

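The deposited scanner files hold an intensity per spot, the processed signal, which per the file headers Feature Extraction 10.1.1.1 had corrected for background without scaling between arrays. Per the labels' protocols, Cy3 was used to label 0.5 µg of RNA per sample, ES cells had been depleted of feeder cells on gelatin and EpiSC or EpiSC-like cells separated mechanically. Of the authors' own steps, only the name limma is in the submitters' processing notes. The authors' deposited value table holds log2 values with the same distribution on every array and served as an alternative.

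Control spots were removed, outlier spots set to missing, spots of a probe averaged, and probes kept that were well above background on at least 2 of 16 arrays (34350 of 41174 gene probes). The probe with the highest mean stood for a gene, named through RefSeq (accessions matched for 22899 probes, current symbols for 6644, former symbols for 3104, and the file's own name kept for 8455). Of 72 probes of the imprinted genes 69 were kept. Analyses used limma 3.58.1 in R 4.3.3 (1 mean per group, 9 residual degrees of freedom) and Python 3.11.15, and the fit was checked on simulated data. Arrays have no read depth, and their number limits the precision. The "at least" folds set the measured side against a floor per array, the higher of the probe's own signal and the lowest signal well above background. Any imprinted gene may be named, and of other lists up to 4 called genes of largest difference, plus chosen regulators and markers. The genes and lists were chosen with earlier results of these data known. Probe coordinates are those of mm7 in the files, and promoters are RefSeq's on GRCm38.p6, with 28 of 34 genes matched. Slides were read from the file headers. Alternatives were normexp, quantile and deposited values, filters, probe rules, slide blocks, array weights and left-out arrays.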

Additional observations from a re-analysis of the deposited data

Results flagged for a closer look

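Gnas was at 3.05 in the EpiSC-like ES line at passage 7 and at 3.88 to 4.00 at the other passages of that line, which left a gap to its neighbour beyond the limit of Dixon's test. It was the only one of the 34 imprinted genes with such an array in this group of 4, the one group large enough to test, and chance alone gives about 1 in 20.

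For 11 imprinted genes the NOD pair (both EpiSC-like lines over NOD ES) and the EpiSC pair (EpiSC over mESM) differed by the interaction term. The term was -8.33 for Mest, -5.51 for Usp29, -3.11 for Nnat, -2.74 for Asb4, -2.22 for Grb10 (-0.07 and -0.38 on its other probes), -2.22 for Magel2, -2.14 for Peg3 and -1.60 for Impact, and 2.03 for Cd81, 1.46 for Rasgrf1 and 1.29 for Phlda2. The mESM arrays were far lower in Mest than all other arrays, and in Usp29 on the probe used but not on its second probe (interaction 0.40, not called), and fibroblast markers were lowest there too.

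The single epiESM array was used in no main comparison. Against mESM it was higher in Usp29 by 8.63, in Mest by 7.58 and in Impact by 1.85, with its spread assumed from the other groups. The second probe of Usp29 was at -3.24 in epiESM, against -3.21 and -2.69 in mESM.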

How the results depend on the processing

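Under every alternative run, the calls held for H19, Igf2, Phlda2 and Asb4 in the EpiSC-like ES and iPS lines over NOD ES and in EpiSC over mESM. In these comparisons 13 of 23, 7 of 20 and 12 of 21 calls held throughout, in EpiSC iPS over EpiSC 3 of 21 (Phlda2, Asb4, Nnat), and in the interaction 1 of 11 (Mest). Leaving out 1 array at a time gave 20 to 26 called imprinted genes (ES line over NOD ES), 16 to 24 (iPS line over NOD ES), 16 to 17 (EpiSC over mESM), 14 to 20 (EpiSC iPS over EpiSC), 4 to 7 (iPS over ES line), 3 to 7 (NOD ES over mESM) and 5 to 15 (interaction). A lone array was assumed to vary like the other groups.

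Normexp background correction called 15 in the ES line over NOD ES (23 as reported), 8 in EpiSC iPS (21), 1 in the iPS over the ES line (6), 3 in NOD ES (6) and 1 in the interaction (11). Fitting only the groups compared called 13 in the iPS line over NOD ES (20), 4 in EpiSC iPS, 15 in the iPS over the ES line and 0 in NOD ES over mESM, where 11 had an unadjusted p under 0.05 and 8 of all genes were called. Without both arrays that stood apart, the pooled spread was smaller, and 19 were called in the iPS over the ES line, 13 in NOD ES and 18 in the interaction. Array weights (0.0654 for NOD ES replicate 1, up to 11.7 for mESM) called 15, 21 and 21 in the same 3. The mESM arrays averaged gave 3 in NOD ES and 5 in the interaction, as leaving out either did. Without an EpiSC array the interaction called 7 and 6. In the iPS over the ES line the deposited values called 13 and the filter of 8 arrays 10.

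Directions turned with normexp for Cd81 (-0.86), Magel2 (0.87) and Igf2r (-0.058) in the iPS line over NOD ES, Rasgrf1 (0.032) in EpiSC iPS, and Magel2 (0.37) and Igf2r (-0.59) in the iPS over the ES line. Cd81 turned in the iPS over the ES line with quantile (-0.64) and deposited values (-1.12), Grb10 in the iPS line over NOD ES (1.23) and Ppp1r9a in NOD ES (0.39) with all probes averaged, and Cdkn1c (-0.61) and Peg10 (-1.19) in NOD ES with array weights. The cause was not tested. Scaling moved the median of all genes, in the ES line over NOD ES to -0.08 with quantile and 0.15 with normexp, against -0.41 as reported, and in the iPS line over NOD ES to 0.11 and 1.01, against -0.04. A slide block (correlation 0.259) left every count of called genes within 1.5 times, the lowest being 4 of 6 in NOD ES over mESM, without Peg3 and Ppp1r9a. No paired analysis was possible because replicate numbers only follow deposition order, apart from the 2 mESM arrays. Dim probes limit Zim1, Peg10, Nap1l5 and Gatm.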
